A study of Rattus norvegicus with 3 samples.

Results

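The genes described here are 10 regulators and effectors of lipid handling and adipogenesis, Pparg, Cebpa, Cebpb, Cebpd, Lpl, Fabp4, Fabp5, Cd36, Apoe and Abca1. They were measured in F65, a rat line of induced pluripotent stem (iPS) cells, and in a mixture of other cultured rat cells. They were chosen by name, as the gene probes whose name in the scanner files is 1 of these 10 or an older alias, out of 35527 genes with a probe. All 10 had a probe and Lpl had 2, which gives 11 probes. The tested cells, iPS F65, are 1 iPS line, kept untreated on a feeder layer of irradiated mouse embryonic fibroblasts in embryonic stem cell medium with fetal bovine serum and a serum replacer. The control, mix1, is a mixture of cultured rat bone marrow cells and cultured rat primary ear fibroblasts, grown in medium with fetal bovine serum. The labels do not state the strain, age or sex of the animals, the reprogramming factors of F65, the proportions of the mixture, or whether cells or RNA were mixed. Each of 3 Agilent 2-colour arrays took Cy3-labelled RNA of 1 iPS F65 sample together with Cy5-labelled RNA of mix1. The comparison asks how expression in the iPS cells differs from that in mix1.

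Adipocyte differentiation runs through a cascade of transcription factors in which C/EBP beta and C/EBP delta come first and then bring up C/EBP alpha and the nuclear receptor PPAR gamma, which maintain each other and switch on genes of fat storage. Lipoprotein lipase, the receptor CD36 and the fatty acid binding proteins take up and carry fatty acids, in fat cells and also in macrophages and endothelium. Apolipoprotein E and the transporter ABCA1 carry cholesterol out of cells and are targets of the liver X receptors (LXR). The C/EBP factors are in addition well known in myeloid cells and in the acute response of fibroblasts to inflammation.

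Each probe is a single strand of 60 bases. The sequences below, read from the scanner files, are those behind the members with the largest measured decreases, the 2 paralogous fatty acid binding proteins, and Lpl, whose 2 probes give an internal check. They are written in lower case with no part marked, because the whole probe is what hybridises.
Apoe: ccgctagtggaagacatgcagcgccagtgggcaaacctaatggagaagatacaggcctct
Cebpd: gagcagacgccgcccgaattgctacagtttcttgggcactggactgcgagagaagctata
Cebpb: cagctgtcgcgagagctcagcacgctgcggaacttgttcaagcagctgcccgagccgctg
Abca1: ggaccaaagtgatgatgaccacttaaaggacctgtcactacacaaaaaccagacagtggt
Fabp4: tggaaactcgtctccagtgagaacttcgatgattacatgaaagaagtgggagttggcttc
Fabp5: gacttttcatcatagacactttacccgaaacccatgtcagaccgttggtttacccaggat
Lpl, first probe: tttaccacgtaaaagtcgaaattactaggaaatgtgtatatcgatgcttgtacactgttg
Lpl, second probe: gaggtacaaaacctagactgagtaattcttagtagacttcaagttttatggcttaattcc
Among the 55 pairs of the 11 probes, the longest run of bases shared on either strand was 11. On the rat build rn3, which the file headers name, the Apoe probe lies at chr1:79081906-79081965, that of Cebpb at chr3:158733316-158733375, that of Abca1 at chr5:70498726-70498785 and that of Cebpa at chr1:87705165-87705224. The Pparg probe lies at chr4:151845021-151845080. The Lpl probes lie at chr16:22533292-22533351 and chr16:22533822-22533881, 530 bases apart. The probe of Fabp4 covers 2415 bases at chr2:93481137-93483551 and that of Cd36 covers 1248 bases at chr4:13518295-13519542, so the 60 bases of each are not contiguous in the genome. The Fabp5 probe is placed on unassigned sequence (chrUn:41847300-41847359), and the file gives no position for the Cebpd probe. No annotation of rn3 was used here, so exon or UTR is not stated.

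On each array 43379 spots measured genes. Between 57.1% and 61.2% of them were well above background in iPS F65 and between 58.3% and 62.1% in mix1, by the scanner software's flag. No gene spot was saturated, and log2 ratios correlated across the genes tested with r from 0.993 to 0.994 between arrays. The number of arrays, 3, limits the precision of every value. The labels do not say that the 3 iPS F65 samples came from separate cultures, so the p-values measure only how far these samples vary, which may be technical variation. Mix1 is 1 control sample whose own spread was not measured, and the dyes were not swapped, so a dye effect and the difference between the cells cannot be told apart. In such bulk samples fewer cells of a type and less RNA per cell cannot be told apart either.

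Of the 10 genes, 8 were well above background on all 3 arrays in at least 1 channel and were tested. In iPS F65, Apoe, Cebpd, Cebpb, Abca1, Fabp4, Cd36 and Lpl were lower and Fabp5 was higher (limma, Benjamini-Hochberg adjusted p under 0.05 over 21783 genes and a log2 ratio of at least 1 in size, which is 2-fold). Pparg and Cebpa were not tested. Over all 21783 genes tested, 24.5% were called lower and 30.9% higher, 55.4% in all, with a median log2 ratio of 0.25. The tested members had a median log2 ratio of -3.89, or -3.08 with Fabp4 and Cd36 at their bounds. Fabp4 and Cd36 entered the test only through mix1 and so had to come out lower, and the members were chosen with earlier results known, so this count is a description only. Of the called genes 55.8% were higher with the scanner software's processed signals and 56.4% after median centring. With normexp background correction and loess together, 41.2% were higher where uneven backgrounds were replaced (median log2 ratio of all genes -0.08) and 53.1% with backgrounds as given (median 0.03).

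**Figure D1:**
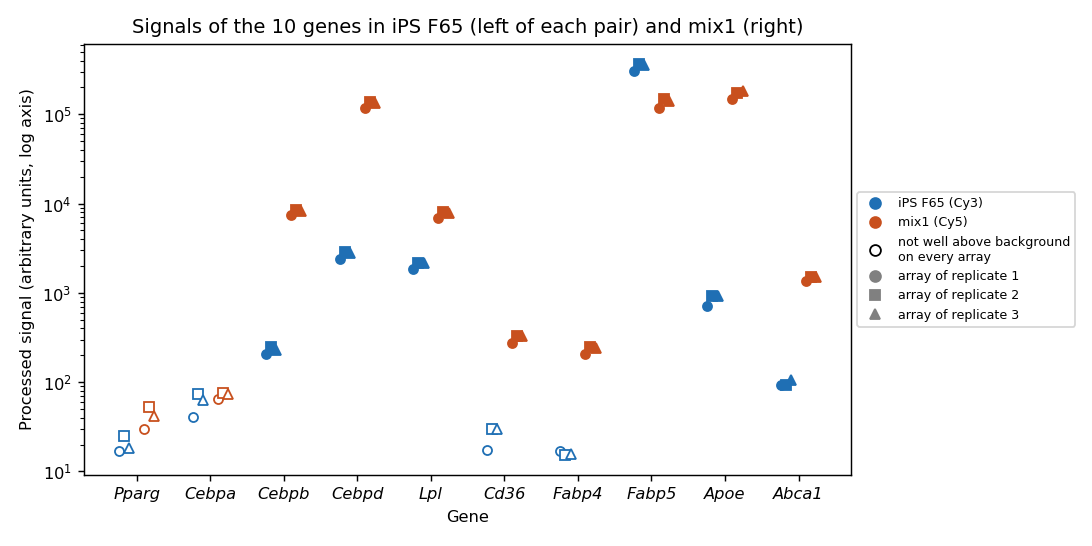
Processed signal (log axis) of the 10 genes on the 3 arrays, iPS F65 in blue at the left of each pair and mix1 in orange at the right, with 1 symbol per array and open symbols where the probe was not well above background on all 3 arrays of that channel. Apoe, Cebpd, Cebpb and Lpl are bright in mix1 and dimmer in iPS F65 on all 3 arrays, Fabp5 is the reverse, and Pparg and Cebpa lie at the bottom in both channels; heights are not comparable between genes.

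Among the regulators, the early factors Cebpb and Cebpd were both far lower in iPS F65. Cebpd, which encodes C/EBP delta, had processed signals of 2400, 2845 and 2772 in iPS F65, against 116670, 139149 and 132235 in mix1 on the arrays of replicates 1, 2 and 3. The 2 sets of values do not come near each other, and the log2 ratio was -5.60 ± 0.02 (SD, n = 3), which is 48.4-fold (limma, adjusted p = 5.37e-06). Cebpb, which encodes C/EBP beta, had signals of 206, 246 and 231 in iPS F65, against 7358, 8491 and 8174 in mix1. Its log2 ratio was -5.14 ± 0.02, or 35.2-fold (limma, adjusted p = 5.37e-06). Both genes remained well above background in iPS F65 on all 3 arrays, so these ratios are measured and not bounds. With normexp and backgrounds as given, Cebpb stood at -3.53 (limma, adjusted p = 0.0301) and Cebpd at -5.30 (adjusted p = 0.00638). Of 21783 genes tested, 624 had a lower ratio than Cebpd and 829 a lower ratio than Cebpb. On every array the Cebpd ratio was below the Cebpb ratio, by 0.43 to 0.50 on the log2 scale (mean difference -0.46 ± 0.04, SD, n = 3), where an exact sign permutation over 3 arrays cannot give a two-sided p under 0.25.

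The late regulators were at or near background in both cell populations. Cebpa, which encodes C/EBP alpha, had signals of 40.9, 72.8 and 63.5 in iPS F65, against 64.8, 75.2 and 73.8 in mix1. It was well above background on 1 of 3 arrays in iPS F65 and on 2 of 3 in mix1, and the lowest signal that the software called well above background was 59.5 to 79.7 in iPS F65 and 59.5 to 81.7 in mix1 after scaling between arrays. Pparg, which encodes PPAR gamma, was printed 10 times on each array. Of its 30 spots, 2 were well above background in iPS F65 and 5 in mix1, and its mean signals were 17.1, 25.2 and 18.3 in iPS F65 against 30.2, 53.1 and 42.0 in mix1. No fold is given for either gene, since neither was well above background on all 3 arrays of either channel.

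Lpl, the lipase that frees fatty acids from lipoproteins at the cell surface, had the smallest decrease of the 5 genes that were lower and measured in both channels. Its first probe, with 10 spots per array, gave 1828, 2157 and 2144 in iPS F65, against 6880, 8065 and 7913 in mix1. The log2 ratio was -1.90 ± 0.01, or 3.73-fold (limma, adjusted p = 6.63e-06). The second probe gave 1513, 1729 and 1731 in iPS F65 and 5663, 6348 and 6326 in mix1. Its log2 ratio was -1.88 ± 0.02, or 3.69-fold, close to that of the first probe.

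Cd36, the scavenger receptor that takes up long-chain fatty acids and oxidised lipoproteins, was measured in mix1 but not in iPS F65. All 30 of its spots were well above background in mix1 and 1 of 30 was in iPS F65. The mean signals were 17.4, 29.5 and 30.0 in iPS F65, against 273, 326 and 331 in mix1. Against the dimmest processed signals above background, Cd36 was at least 4.69-fold lower in iPS F65, a bound that holds for the processed signals only. The fitted log2 ratio of -3.63 ± 0.29 (limma, adjusted p = 0.00012) rests on iPS signals that were not well above background. With normexp and uneven backgrounds replaced, Cd36 stood at -1.96 (limma, adjusted p = 2.12e-06). The call ended under normexp with local backgrounds as given, at -0.79 (limma, adjusted p = 0.243).

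**Figure D2:**
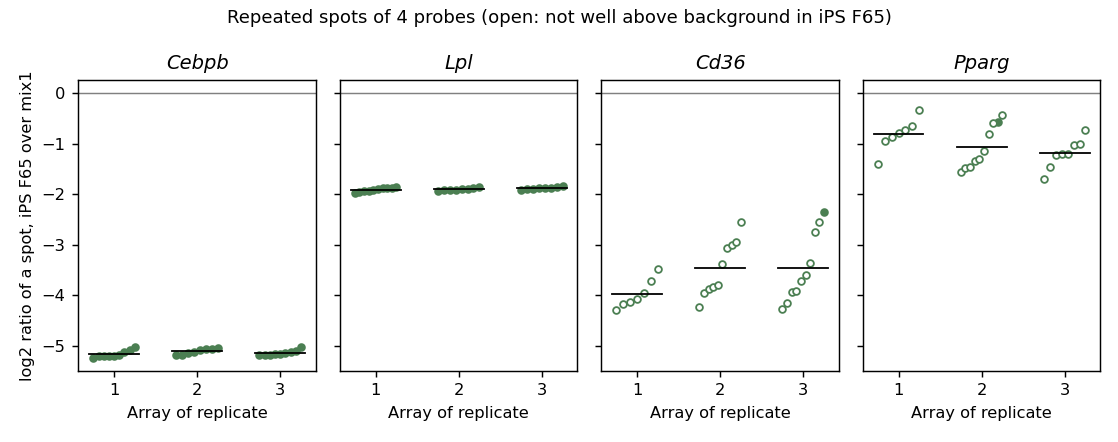
Log2 ratio, iPS F65 over mix1, of every spot kept of 4 probes printed 10 times per array (x axis: array of replicate 1, 2 or 3), with open symbols for spots not well above background in iPS F65 and a line at each array's mean. The spots of Cebpb and Lpl lie on top of each other (SD 0.02 to 0.07 within an array), and those of Cd36 and Pparg spread with SDs of 0.29 to 0.68.

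The repeated spots show how firm these ratios are within an array. Over the 8 to 10 spots kept per array, Lpl had an SD of 0.02 to 0.04 on the log2 scale and Cebpb 0.05 to 0.07. Cd36 had SDs of 0.29, 0.55 and 0.68 over 7, 10 and 10 spots. Its lowest and highest spot ratios were -4.29 and -2.35, all on the same side of 0. Pparg had SDs of 0.33, 0.43 and 0.30, with spot ratios from -1.71 to -0.34. Spots that the software flagged as outliers, 3 of 30 for Cd36, 5 of 30 for Pparg and 4 of 30 each for Cebpb and Lpl, were left out.

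The 2 fatty acid binding proteins went opposite ways. Fabp5, the epidermal form, which is made by many cell types, had signals of 303076, 370295 and 355999 in iPS F65, against 119190, 148861 and 141482 in mix1. The lowest iPS F65 value was above the highest mix1 value, at a log2 ratio of 1.33 ± 0.02, or 2.52-fold (limma, adjusted p = 9.51e-06). Fabp4, the adipocyte and macrophage form, was at 17, 15.2 and 15.6 in iPS F65, a substitute that the software sets for signals at background, against 206, 246 and 244 in mix1. Fabp4 was at least 3.52-fold lower in iPS F65 (fitted log2 ratio -3.86 ± 0.23, limma, adjusted p = 5.27e-05). Under normexp with local backgrounds as given, the Fabp4 call ended at -0.74 (limma, adjusted p = 0.258).

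The Fabp5 call lay close to the 2-fold limit and depended on the correction. With normexp, uneven local backgrounds replaced and loess, the log2 ratio was 0.90 (limma, adjusted p = 1.69e-06), and with the backgrounds as given 0.98 (adjusted p = 0.00973), both under the limit. Relative to the median of all genes tested, the excess was 1.08 with the processed signals and 0.98 and 0.95 with these 2 corrections. The Fabp5 spot was flagged for an uneven local background on all 3 arrays. It was also so bright that both channels were read from the low-gain scan and scaled up, as the mix1 channel was for Apoe and Cebpd. The part of the low-gain reading in these ratios was not tested. A fatty acid binding protein outside the 10 genes, Fabp3, the heart form, was lower with a log2 ratio of -1.17 ± 0.00, while Fabp1, Fabp2, Fabp6, Fabp7 and Fabp9 were not well above background on all arrays of either channel. Fabp3 was named after its value was seen.

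**Figure D3:**
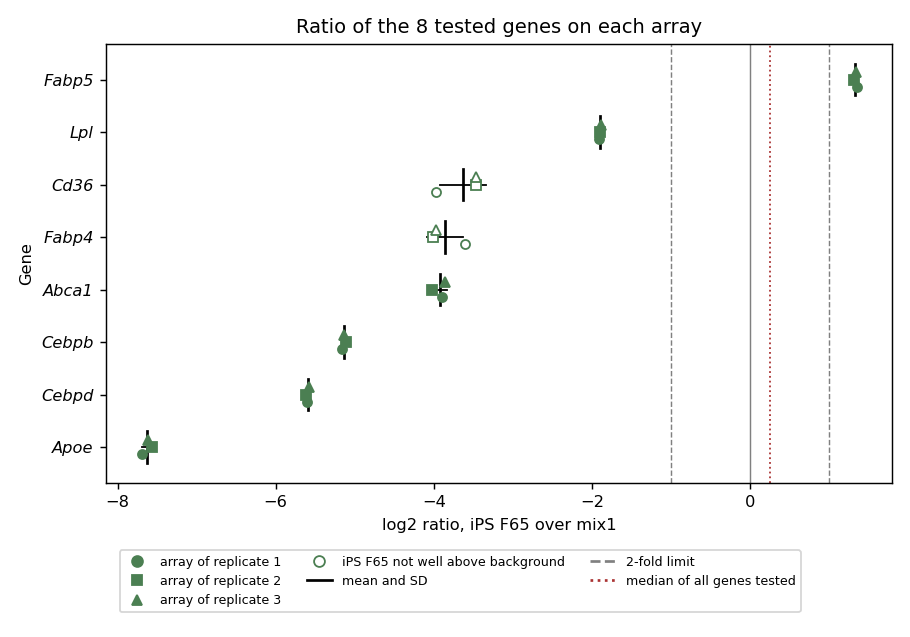
Log2 ratio, iPS F65 over mix1, of the 8 tested genes on each of the 3 arrays (symbols), with the mean and SD in black, the 2-fold limit as dashed lines and the median of all genes tested (0.25) as a dotted line. Fabp5 is the only gene to the right of the limit, and the open symbols of Cd36 and Fabp4 rest on iPS F65 signals that were not well above background.

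Both genes of cholesterol export were lower in iPS F65. Apoe, which encodes apolipoprotein E, had signals of 719, 915 and 924 in iPS F65, against 148408, 173929 and 181887 in mix1. This is the largest measured decrease among the 8, with a log2 ratio of -7.63 ± 0.06, or 198-fold (limma, adjusted p = 5.37e-06), and 136 of the 21783 genes had a lower ratio. Abca1, the transporter that loads cholesterol onto apolipoproteins, had signals of 91.8, 93.7 and 104 in iPS F65, against 1363, 1519 and 1516 in mix1. Its log2 ratio was -3.92 ± 0.08, or 15.2-fold (limma, adjusted p = 8.39e-06). The iPS F65 signals of Abca1 lay close to the lowest ones above background, and the ratio was -3.45 with uneven backgrounds replaced and -1.85 with backgrounds as given, where the call ended (limma, adjusted p = 0.107).

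**Figure D4:**
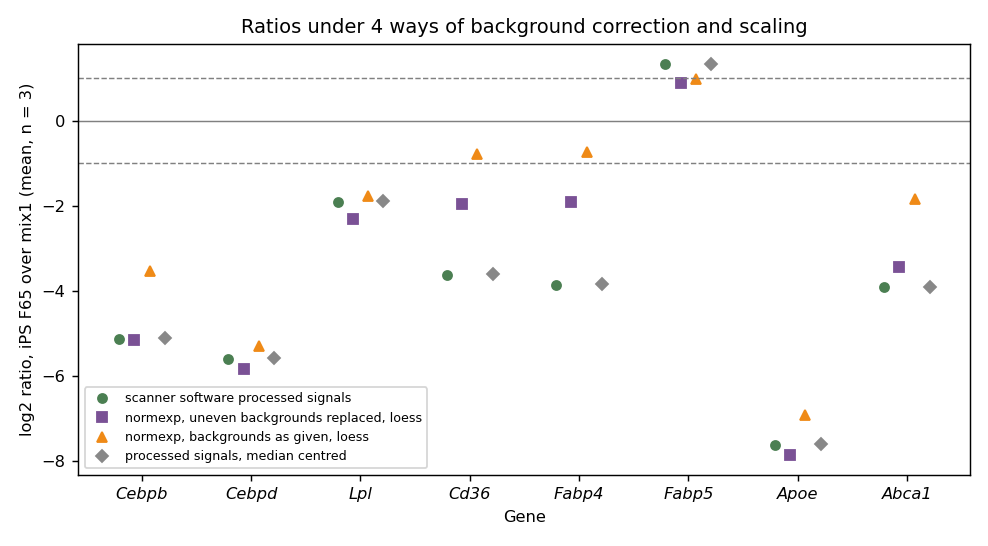
Mean log2 ratio (n = 3 arrays) of the 8 tested genes under 4 ways of background correction and scaling, with the 2-fold limits as dashed lines. Apoe (-7.87 to -6.92), Cebpd (-5.85 to -5.30) and Lpl (-2.31 to -1.76) stay past the limit in all 4, Fabp5 is under it in both normexp settings, and Cd36 and Fabp4, dim in iPS F65, move from about -3.6 and -3.9 with the processed signals to -0.79 and -0.74 with backgrounds as given.

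The upstream sequences of 6 of the 10 genes were taken from RefSeq on GRCr8, as 250 bases before and 50 after the start site. Those of Abca1 (chr5:72596424-72596723, minus strand) and Cebpb (chr3:176816755-176817054, plus strand) are shown because both genes were lower in iPS F65 and both hold the letters of a TATA box, TATAAA, near the start site. Capitals mark these letters.
Abca1: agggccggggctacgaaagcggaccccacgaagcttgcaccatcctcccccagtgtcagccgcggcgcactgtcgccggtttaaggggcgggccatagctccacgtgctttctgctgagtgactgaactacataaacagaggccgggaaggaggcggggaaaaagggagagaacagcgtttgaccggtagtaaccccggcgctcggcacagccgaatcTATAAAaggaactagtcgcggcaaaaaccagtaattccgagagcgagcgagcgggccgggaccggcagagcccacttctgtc
Cebpb: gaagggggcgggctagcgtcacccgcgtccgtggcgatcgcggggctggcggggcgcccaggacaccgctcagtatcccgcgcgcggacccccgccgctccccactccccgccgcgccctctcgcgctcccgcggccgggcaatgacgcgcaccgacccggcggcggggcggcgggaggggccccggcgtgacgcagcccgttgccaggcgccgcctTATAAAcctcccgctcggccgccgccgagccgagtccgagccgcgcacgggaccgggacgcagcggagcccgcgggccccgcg
TATAAA begins at position -32 in Abca1, -33 in Cebpb and -35 in Cebpa on the gene's own strand, and 1.52% of 27457 promoters of this length hold it on that strand with a first base from -40 to -20. On both strands and over the whole window, TATAAA occurs in 5 of the 6 promoters and in 14.26% of all. The C/EBP palindrome TTGCNNAA and the nuclear receptor repeat unit AGGTCA occur in none of the 6 and in 10.48% and 15.68% of all promoters, both strands searched. The 3 motifs were each searched alone, and none contains another. A match is a stretch of letters, not a bound site. Only exact letters were searched, so a site with variant letters is missed, and no match does not mean no site.

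Other genes of the same pathways are given from 6 lists. Counts use fitted ratios, so a gene not above background in 1 channel can be counted as called with a bound under 2-fold. A gene that passed the filter through 1 channel, with the other above background on no array, was all but bound to come out higher in the first. Where the other channel was above background on some arrays, the filter favoured this direction but did not fix it. In the list of 35 genes of sterol efflux and apolipoproteins, 24 were tested, of which 14 were lower in iPS F65 and none higher, beside 24.5% lower and 30.9% higher over all genes. Of these 24 genes, 7 passed the filter through mix1 with iPS F65 well above background on none of the arrays. Cyp27a1 and Apob also passed through mix1 only, with iPS F65 well above background on 1 and 2 of 3 arrays. Both were named after their values were seen. With both channels required 6 genes were lower. The median log2 ratio was -2.28, which became -1.25 where bounds replaced the fitted ratios. Ch25h, which makes 25-hydroxycholesterol, was lower at a log2 ratio of -6.38 ± 0.13, the lysosomal cholesterol carrier Npc2 at -3.97 ± 0.03 and the ABC transporter Abca7 at -3.62 ± 0.21. Abcg1, which exports cholesterol to high-density lipoprotein, was at least 44.6-fold lower, with signals of 15.9, 14.7 and 14.6 in iPS F65 against 2817, 2947 and 3031 in mix1. Of the LXR genes themselves, Nr1h3 (LXR alpha) was lower at -1.95 ± 0.04 and Nr1h2 (LXR beta) at -1.66 ± 0.03, and the LXR target Mylip was at least 4.36-fold lower. Other LXR targets were not called: Scd (-0.29 ± 0.02), Fasn (-0.07 ± 0.03) and Srebf1 on its brighter probe (-0.75 ± 0.03). The second Srebf1 probe gave -1.53. Nr1h3, Nr1h2, Mylip, Scd, Fasn and Srebf1 were named after their values were seen. The 2 probes of Pltp, which encodes the phospholipid transfer protein, disagreed. The brighter one, which stands for the gene in the count, gave 0.16, and the other gave -3.44 (limma, adjusted p = 6.66e-06). Pltp too was named after its values were seen.

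Regulators of adipogenesis other than the 10 genes were mixed. Of 36 tested from a list of 42, 6 were higher, 13 lower and 17 neither, with a median log2 ratio of -0.46. Of the 36, 4 had passed the filter through mix1 with iPS F65 well above background on none of the arrays. Klf15 and Egr2 had also passed through mix1 only, with iPS F65 well above background on 2 and 1 of 3 arrays. Rxrg had passed through iPS F65 only, with mix1 well above background on 1 of 3. Egr2 and Rxrg were named after their values were seen. In all 52.8% were called, near the 55.4% over all genes tested. The early B-cell factor Ebf1, a promoter of adipogenesis, was lower at -5.40 ± 0.02, the signal transducer Stat5a at -4.60 ± 0.06 and Ddit3, a dominant-negative C/EBP relative, at -2.54 ± 0.02. Stat5b was at least 9.80-fold lower. Klf15, a Krüppel-like factor that promotes adipogenesis, was lower at -7.44 ± 0.47 and was well above background in iPS F65 on 2 of 3 arrays; it was named after its value was seen. In the other direction, Arxes1, an X-linked gene of adipocytes, was higher by 3.26 ± 0.13 on its brighter probe and by 7.87 on its other probe, the deacetylase Sirt1 by 2.31 ± 0.05 and the coactivator Ppargc1b by 2.01 ± 0.04. Rxrg was higher by 3.46 ± 0.56 on its brighter probe and by 2 on its other probe.

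Genes of mature fat cells were mostly not measured. Of 22 listed, 18 had a probe and 8 were tested, while Lep, Retn, Plin1, Pck1, Lipe, Aqp7, Adrb3, Gpd1, Thrsp and Ucp1 were not well above background on all arrays of either channel. Of the 8 tested, 3 were higher and 4 lower. Through mix1 only, 3 of the 8 had passed the filter, while Cidec and Adipoq had passed through iPS F65 only. The share called was 87.5%, beside 55.4% over all genes tested. Rbp4, a retinol carrier, was higher by 1.17 ± 0.03 and the lipid droplet gene Cidec by at least 2.83-fold, whereas Apln, which encodes the peptide apelin, was lower at -1.78 ± 0.02 and the adipocyte protease gene Cfd was at least 33.3-fold lower. Adipoq, which encodes the fat cell hormone adiponectin, had signals of 1493, 1717 and 1458 in iPS F65, against 71.0, 74.6 and 130 in mix1. The values do not overlap, at a log2 ratio of 4.14 ± 0.57 (limma, adjusted p = 0.0005), and mix1 was well above background on 2 of 3 arrays. Adipoq was named after its value was seen.

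In the list of lipid uptake, binding and activation, 5 of 26 tested genes were higher and 12 were lower (median -0.66). Of the 26, 3 had passed the filter through iPS F65 only, and 2 through mix1 with iPS F65 well above background on none of the arrays. Angptl4 had also passed through mix1 only, with iPS F65 well above background on 2 of 3 arrays. It was named after its values were seen. The share called was 65.4%, beside 55.4% over all genes tested. The endocytic receptor Lrp1, which takes up Apoe-bearing particles, was lower at -6.19 ± 0.08 on its brighter probe and at -2.37 on the other, which was well above background in iPS F65 on 1 of 3 arrays. Also lower were the retinoic acid binding proteins Crabp1 and Crabp2 at -5.50 ± 0.04 and -5.29 ± 0.02, and the scavenger receptor Msr1 was at least 46.1-fold lower. Lrp2, or megalin, a receptor of the same family as Lrp1, was higher by 3.18 ± 0.05, the acyl-CoA synthetase Acsl1 by 1.93 ± 0.02 and the endothelial lipase gene Lipg by at least 6.32-fold. Of 26 tested genes of triglyceride synthesis and lipid droplets, 3 were higher and 9 lower (median -0.37). Among them 1 had passed the filter through iPS F65 only, and 3 through mix1 with iPS F65 well above background on none of the arrays. G0s2 had also passed through mix1 only, with iPS F65 well above background on 2 of 3 arrays. It too was named after its values were seen. The share called, 46.2%, was under the 55.4% over all genes. Cav1, which encodes caveolin-1, was lower at -7.67 ± 0.02 on its brightest probe and at -5.44 and -5.41 on its others, Dgat1 at -2.63 ± 0.00 and the desaturase Scd2 at -2.10 ± 0.02, and Fads2 was at least 19.1-fold lower. Lpin2, which makes diacylglycerol, was higher by 1.55 ± 0.03 and the glycerol phosphate acyltransferase gene Gpam by 1.13 ± 0.03. Of 27 tested genes of fatty acid oxidation, 3 were higher and 9 lower (median -0.70). The share called, 44.4%, was also under the 55.4% over all genes. Acadvl, the very long-chain dehydrogenase, was lower at -3.72 ± 0.02, Eci1 at -3.08 ± 0.04 and Ech1 at -2.54 ± 0.01. The thioesterase gene Acot1, which has the close paralog Acot2, was higher by 2.72 ± 0.09, the muscle carnitine transferase gene Cpt1b by 1.51 ± 0.04 and Etfa by 1.27 ± 0.01.

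**Figure D5:**
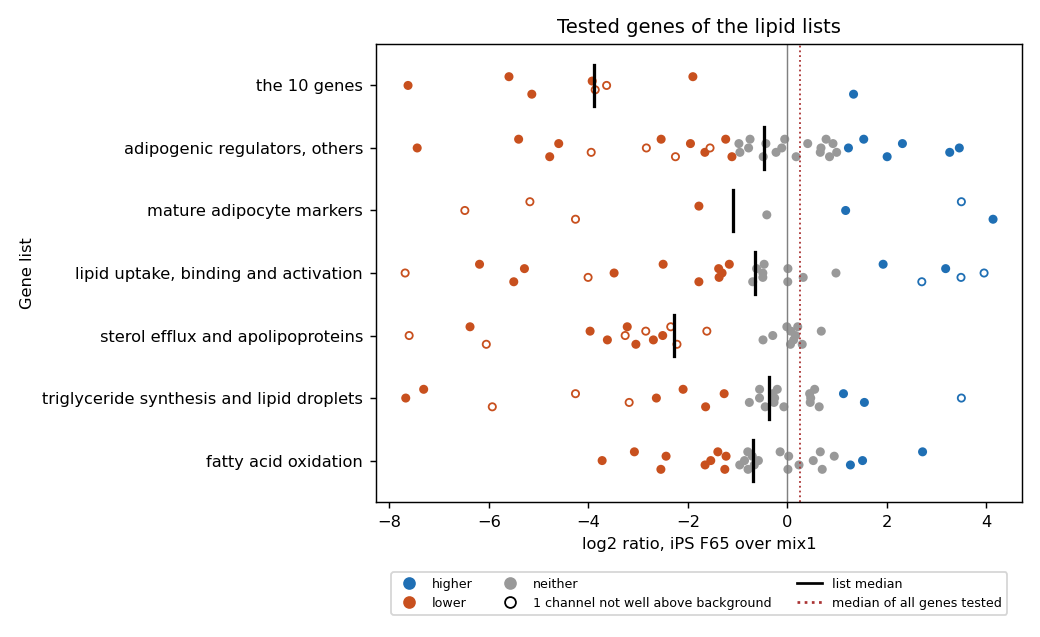
Mean log2 ratio, iPS F65 over mix1, of the tested genes of the 10 and of 6 lipid lists, 1 point per gene, blue where called higher, orange where called lower and grey where neither, open where 1 channel was not well above background, with each list's median in black and the median of all genes tested (0.25) as a dotted line. The list medians lie between -2.28 and -0.37, and 7 of the 8 tested genes of the 10 lie left of -1.

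Markers of cell types are set beside the lower levels of Apoe, Cebpb, Cebpd, Cd36, Fabp4, Lpl and Abca1 in iPS F65. With 1 contrast, a shared direction does not tie a gene to a cell type. Over all genes tested, 24.5% were lower and 30.9% higher. All 13 fibroblast and mesenchymal markers were lower (median -7.84), among them Postn (at least 482-fold), Col3a1 (-10.09 ± 0.05) and Dcn (-9.51 ± 0.04). Their summed signal was 24200 to 29800 in iPS F65, against 2360000 to 2950000 in mix1, and in iPS F65 Thy1 and Postn were not well above background while 11 of the 13 were on all 3 arrays. Of 12 tested macrophage and myeloid markers 11 were lower, among them Mrc1 (at least 87.5-fold), Aif1 (at least 144-fold) and Lyz2 (-7.30 ± 0.05), and Ptprc was not called on its brightest probe (-2.26 ± 1.64, limma, adjusted p = 0.0556), with signals of 16, 300.6 and 14 in iPS F65 against 122.7, 392 and 153.6 in mix1. The 2 other Ptprc probes, not well above background in iPS F65, were called lower at -3.35 (limma, adjusted p = 8.01e-05) and -2.86 (adjusted p = 4.42e-05). The 12 tested macrophage and myeloid markers summed to 3230 to 4110 in iPS F65, against 233000 to 273000 in mix1. Among them Itgam, Adgre1, Mrc1 and Aif1 were not well above background in iPS F65. Of 13 pluripotency markers 6 had a probe, and Nanog, Zfp42 and Sall4 were among those without. Of 5 tested 4 were higher, led by Nr0b1 (4.87 ± 0.05), Dnmt3b (4.22 ± 0.12) and Sox2 (3.14 ± 0.40). Pou5f1, also higher, had passed the filter through iPS F65 only, and Lin28a was not called (-0.17). Pou5f1 and Lin28a were named after their values were seen. The summed signal of the 5 was 16200 to 19000 in iPS F65 against 1340 to 1450 in mix1. Of 10 endothelial markers 4 were tested. Tie1, at least 1.65-fold, and Egfl7 (-2.84 ± 0.04) were lower, Tek was at least 4.16-fold higher, and their summed signal was 1200 to 1390 in iPS F65 against 5850 to 6720 in mix1. Pecam1 and Cdh5, also on the endothelial list, were not well above background on all arrays of either channel. The 8 tested fat cell markers summed to 6650 to 7900 in iPS F65 and 6820 to 8330 in mix1. Which of the cells of mix1 carried each gene, and the part of the mouse feeder cells in the iPS F65 signals, was not tested.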

How the data were processed

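The 3 arrays lie on 1 slide with 1 scan time and were extracted with Agilent Feature Extraction 9.5.3.1, per the file headers, so no batch could be tested. Their processed intensity values had been background-subtracted and dye-normalised within each array by the software, per the file headers. The deposited log2 values of the series table equal the mean log2 of processed green (iPS F65) over red (mix1) signals for 41012 probes, within 3.11e-06, which fixes iPS F65 as the numerator and shows no further centring. Their medians were 0.00, -0.01 and -0.06.

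Control spots and spots flagged as outliers (204 to 213 per array) were left out, spots of a probe were averaged on the log2 scale, and no pseudocount was added. A probe counted as well above background on an array if at least 0.5 of its spots were. It was tested if this held on all 3 arrays in 1 channel. A gene was its brightest tested probe. Of 3255 genes with several tested probes, 18 had probes called in opposite directions, none of them named here. Probes were named through RefSeq (GRCr8) by accession (10811), symbol (5562) or a unique older name (3717), and 20922 kept the file's name. Ratios were tested for a mean of 0 in limma 3.58.1 (lmFit, eBayes, R 4.3.3), with Benjamini-Hochberg adjustment over all genes. Bounds set the brighter channel's mean, after Aquantile scaling, against the higher of the dim signal and the array's lowest signal above background. Some spots brighter than that lowest signal were not flagged as above background. A bound is therefore approximate and holds for the processed signals only. The fit was tested on simulated data.

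The members, lists and tests were chosen with earlier results of these data known. All 10 genes are printed. From each pathway list the rule takes up to 3 called genes in each direction measured in both channels plus the largest bound, and from each marker list the 3 largest called ratios and those against the list's direction. Exceptions are marked.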

Additional observations from a re-analysis of the deposited data

How the results depend on the processing

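The ratios of Apoe (-7.87 to -6.92), Cebpd (-5.85 to -5.30), Cebpb (-5.15 to -3.53) and Lpl (-2.31 to -1.76) stayed past 2-fold and under an adjusted p of 0.05 (limma) in all 10 alternatives: 2 normexp corrections with loess, median centring, 2 filters, the mean of a gene's probes, the series table and leaving out each replicate. With uneven backgrounds replaced, normexp and loess called 3979 genes higher over all genes, no member higher, 1 gene of triglyceride synthesis higher and 15 of fatty acid oxidation lower. With backgrounds as given, 2354 genes were higher and 2081 lower, and of the members 0 were higher and 4 lower. Of the lists, this setting called 2 other regulators higher and 6 lower, 0 fat cell markers higher and 0 lower, 2 uptake genes higher, 5 sterol genes lower, and 0 triglyceride genes higher and 5 lower. The cause was not tested. Requiring both channels to be well above background tested fewer genes and called 3232 lower. It called 7 other regulators lower, 1 fat cell marker higher and 1 lower, 2 uptake genes higher, 6 sterol genes lower and 5 triglyceride genes lower, and it left out Cd36 and Fabp4. With no filter 1 sterol gene was higher, and 8 members were lower, Pparg at background levels among them. With the mean of a gene's probes 10 other regulators were higher. Leaving out each replicate kept 1 member higher and 7 lower, with 6689 to 6986 genes higher and 5298 to 5481 lower over all genes. The tested ratio already pairs the 2 channels of each array. No further pairing was possible because each array holds 1 iPS F65 sample against the same mix1, with no second group of numbered samples. Signal over background limits Pparg, Cebpa, Cd36, Fabp4 and Abca1.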

Other observations

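Enzymes and carriers of fatty acids that are encoded by several related genes gave the following values. The genes were named after their values were seen. Among long-chain acyl-CoA synthetases, which activate fatty acids, Acsl1 was higher in iPS F65 (log2 ratio 1.93 ± 0.02, SD, n = 3) and Acsl6 was at least 1.33-fold higher, while Acsl3 (0.01 ± 0.03), Acsl5 (0.01 ± 0.01) and Acsl4 (-0.47 ± 0.01) were within 2-fold. Among fatty acid transport proteins, Slc27a6 was at least 2.28-fold higher and Slc27a1 was lower at -2.50 ± 0.02, with Slc27a2 (0.32 ± 0.17), Slc27a3 (-0.49 ± 0.02) and Slc27a4 (-0.70 ± 0.02) within 2-fold. The differences between family members were not tested.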
